A study of Homo sapiens with 8 samples.

Results

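Isolated distal sites open in every library are stretches of open chromatin that lay away from transcription starts and away from large groups of neighbours. They were chosen by merging the overlapping peaks of 8 peak lists into 102366 regions, keeping the 24246 regions with a peak in all 8 lists, and keeping those whose centre lay more than 1 kb from any transcription start. These distal regions were joined into chains wherever the gap between neighbours was at most 12500 bp, and the sites in chains of 1 to 4 were kept. The rule selected 14935 sites, which were 61.6% of the regions open in every library and 99.2% of the 15060 distal ones. The other classes open in every library were 9186 promoter sites and 125 clustered distal sites in chains of 5 or more. Because presence in all 8 lists chose the members, their presence is no finding, and only strength, width, position, sequence and ranks are described.

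The libraries were made with ATAC-seq, in which a transposase inserts sequencing adapters into open DNA, from LX-2 cells. LX-2 is an immortalised human hepatic stellate cell line of wild type genotype, and all 8 libraries came from this single line. The cells were moved from plastic onto a hydrogel, either soft at about 2 kPa or stiff at about 40 kPa, and collected on day 2 (D2) or day 4 (D4). Each of the 4 groups, named by day and matrix as in D2 soft, had 2 replicate libraries. The study's methods call the replicates of its sequencing experiments biological, and the labels do not say which cultures they came from, so p-values cover the spread between these libraries.

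Distal open sites are where most enhancers lie. Enhancers are short stretches of DNA that bind transcription factors and act on promoters elsewhere on the chromosome. Hepatic stellate cells turn into matrix-producing myofibroblasts in liver fibrosis, and AP-1 dimers of JUN, FOS and ATF proteins and the TEAD proteins, which carry the coactivators YAP and TAZ to DNA, are known for binding enhancers in spread, mechanically loaded cells. CTCF, in contrast, is the zinc finger protein that marks insulators and loop anchors.

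The sequences that carry the description are shown on the forward strand of hg19, from 5′ to 3′, around the summit of the site's strongest peak. The first pair is the strongest single-copy sites with AP-1 letters and the next pair also holds them, and the capitals in these 4 mark TGACTCA or its reverse complement and, in the PDE4D site only, also the reverse complement of the TEAD letters GGAATG. The ITPR2 site was the strongest that held 3 AP-1 matches, and the PDE4D site was the strongest that held both AP-1 and TEAD. The third pair is the strongest with the CTCF core, which is in capitals. The last 4 ranked higher or lower on the stiff matrix, and capitals mark TEAD letters in the first pair, while the second pair held no AP-1, TEAD or CTCF match.
STRN intron, chr2:37117034-37117159: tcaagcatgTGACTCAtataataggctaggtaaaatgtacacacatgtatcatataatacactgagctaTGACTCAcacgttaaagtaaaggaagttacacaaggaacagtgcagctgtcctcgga
PLEKHA5 intron, chr12:19291526-19291651: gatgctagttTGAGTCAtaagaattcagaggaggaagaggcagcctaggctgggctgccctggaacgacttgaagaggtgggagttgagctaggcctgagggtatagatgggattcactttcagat
ITPR2 intron, chr12:26844517-26844678: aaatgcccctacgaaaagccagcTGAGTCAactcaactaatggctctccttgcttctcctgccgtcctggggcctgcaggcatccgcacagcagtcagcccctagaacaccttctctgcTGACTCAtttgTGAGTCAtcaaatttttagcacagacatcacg
PDE4D intron, chr5:58489862-58490054: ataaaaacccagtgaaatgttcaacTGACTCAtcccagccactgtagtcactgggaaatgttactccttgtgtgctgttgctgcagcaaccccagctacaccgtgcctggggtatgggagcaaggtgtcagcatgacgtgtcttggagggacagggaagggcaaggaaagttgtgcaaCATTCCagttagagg
ZNF131 intron, chr5:43105950-43106027: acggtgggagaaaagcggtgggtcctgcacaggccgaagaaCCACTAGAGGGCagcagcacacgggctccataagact
Intergenic site on chromosome 1, chr1:33592911-33592998: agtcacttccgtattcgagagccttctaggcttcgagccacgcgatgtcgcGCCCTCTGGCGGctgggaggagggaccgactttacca
Intergenic site nearest AKAP1, chr17:55220442-55220567: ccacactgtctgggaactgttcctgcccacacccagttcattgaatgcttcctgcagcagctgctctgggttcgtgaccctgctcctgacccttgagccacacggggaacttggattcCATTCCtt
Intergenic site on chromosome 2, chr2:18544093-18544160: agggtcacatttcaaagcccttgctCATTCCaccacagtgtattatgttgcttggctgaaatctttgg
Intergenic site on chromosome 6, chr6:15793681-15793731: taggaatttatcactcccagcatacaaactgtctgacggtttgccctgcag
Intron of ENSG00000229209, chr2:103752315-103752365: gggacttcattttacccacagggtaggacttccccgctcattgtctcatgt
The STRN site held 2 matches, the PLEKHA5 site held 1 near the edge of the window searched, and the ITPR2 site held 2 of its 3 matches a few bases apart. The ITPR2 and PDE4D sites were picked for their matches after the values were seen.

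The 8 lists held 29789 to 72840 peaks and 466883 in all, and the depth estimated from the lists was 0.780 to 3.15 fragments per kb. D2 soft replicate 1 was the shallowest library by both measures, and it limited the membership. Leaving it out and rebuilding the sites from the other 7 lists gave 23115 isolated sites, against 14989 to 15390 when any other library was left out. Of 13 stellate or mesenchymal marker genes, PDGFRB, ACTA2, COL1A1, VIM and SPARC had a peak at a start in all 8 libraries, while COL3A1, DES, LRAT, LUM and DCN had one in 0. COL1A2 and RELN had one in 6 and HGF in 4. None of 6 hepatocyte genes had a peak in all 8, with TTR in 2 and SERPINA1 in 1, and of the leukocyte genes CD68 and CD14 had one in 8 and PTPRC, SPI1 and CD3E in 0. Among endothelial genes TIE1 had one in 7 and CDH5, VWF and STAB2 in 0, and PECAM1 had no start in the annotation used. Among biliary or epithelial genes SOX9 had one in 7, EPCAM in 6, and KRT19 and CDH1 in 0. The part of other cells in the results was not tested.

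The strength of a site in a library was the highest fold enrichment of its peaks there, which is the number of fragments at the summit plus 1 over the local background plus 1. The median fold enrichment of the isolated sites was 6.63 and 9.68 on soft at day 2, 9.73 and 8.76 on soft at day 4, 9.59 and 10.53 on stiff at day 2, and 10.32 and 10.82 on stiff at day 4. The lowest median belonged to D2 soft replicate 1, where the median summit held 11 fragments against 20 to 39 in the others. The 5th and 95th percentiles of the members were 4.06 and 10.9 in D2 soft replicate 1 and 6.19 and 15.8 in D4 stiff replicate 2. The highest value in any library was 26.1 and the lowest was 2.27, so that every library held strong and weak members. Since fold enrichment depends on depth, strength was compared as the percentile of a site among the 24246 sites open in every library, from 0 for the weakest to 100 for the strongest.

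**Figure D1:**
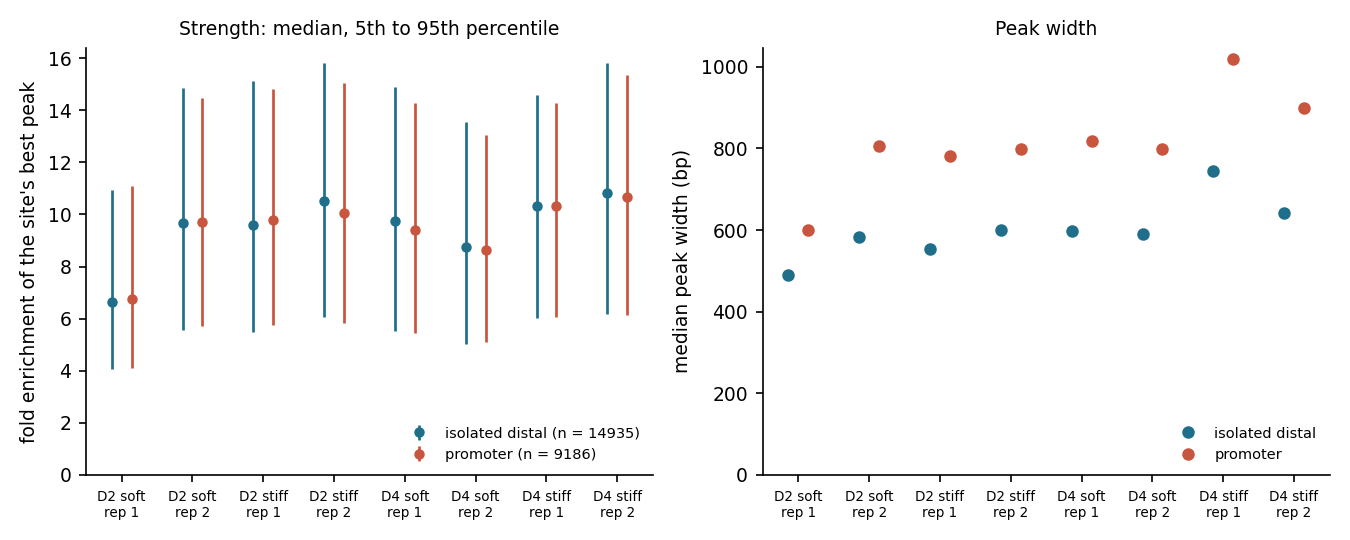
Left, fold enrichment of the best peak per site in each library, as the median with bars from the 5th to the 95th percentile, for the 14935 isolated distal sites and the 9186 promoter sites. Right, the median peak width in bp of the same sites, where isolated sites sit at 491 to 745 bp, below the promoter sites in every library.

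On this scale the isolated sites lay near the middle of all sites open in every library. They made up 61.6% of the sites ranked, which by itself limits how far their median can lie from 50. Their median percentile was 48.8 and 49.9 on soft at day 2, 52.0 and 50.6 on soft at day 4, 49.0 and 52.4 on stiff at day 2, and 50.2 and 50.9 on stiff at day 4. The mean over libraries was 50.5, against 49.4 for promoter sites and 35.4 for clustered distal sites. Isolated minus promoter was 1.03 ± 3.22 (SD, n = 8), higher in 5 of 8 libraries, and the exact two-sided sign-flip permutation test over libraries gave p = 0.375. Isolated minus clustered was 15.1 ± 7.50 (SD, n = 8), higher in 8 of 8 libraries, with differences from 3.52 to 24.8 and an exact permutation p of 0.00781, the smallest that 256 sign arrangements allow. This comparison set the same 14935 sites against the same 125 in each library, so the p covers the spread between libraries and not between sites. The order turned round with the value ranked: on −log10 p the isolated sites ranked below both other classes, at -10.0 percentile points for isolated minus clustered and -9.29 for isolated minus promoter, each with an exact permutation p of 0.00781. Fold enrichment divides by the local background and −log10 p grows with the number of fragments, and the median summit of D4 stiff replicate 1 held 39 fragments at isolated, 58 at clustered and 54 at promoter sites. In 8 of 8 libraries the median summit held fewer fragments at isolated sites than at clustered or promoter sites.

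The isolated sites were narrow. Their peaks had a median width of 491 and 582 bp on soft at day 2, 598 and 591 bp on soft at day 4, 554 and 601 bp on stiff at day 2, and 745 and 641 bp on stiff at day 4. D4 stiff replicate 1 had the widest peaks and D2 soft replicate 1 the narrowest. Isolated peaks were narrower than clustered peaks by a mean of 78 bp (isolated minus clustered -78 ± 12.7 bp, SD, n = 8; lower in 8 of 8 libraries, exact sign-flip permutation p = 0.00781) and narrower than promoter peaks in the same 8 libraries (isolated minus promoter -215.2 ± 49.6 bp, SD, n = 8; exact permutation p = 0.00781). After merging over libraries the isolated sites had a median length of 883 bp, with a range of 306 to 3593 bp, and covered 14.1 Mb. The merged promoter sites had a median of 1152 bp.

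Most isolated sites stood alone. Chains of 1 held 11253 sites, or 75.3%, chains of 2 held 2722 sites, chains of 3 held 780 and chains of 4 held 180. The median percentile was 51.3 for lone sites, 46.0 in chains of 2, 43.3 in chains of 3 and 40.1 in chains of 4, so it was lower with every added neighbour within the members. Just outside the rule, the 80 sites in chains of 5 had a median percentile of 36.9 and a median width of 941 bp, against 884.5 bp in chains of 4. The AP-1 letters were found in 41.5% of lone sites and in 45.6% of those in chains of 4, and in 35.0% of those in chains of 5. The strongest complete chain of 4 lay in an intron of FRMD6, a FERM domain protein placed upstream of Hippo signalling, between chr14:51999569-52000572 and chr14:52020879-52021934. Its strongest site, chr14:52013529-52014590, held AP-1 letters and had a fold enrichment of 12.6 and 14.4 on soft at day 2, 16.6 and 13.7 on soft at day 4, 14.3 and 14.7 on stiff at day 2, and 14.8 and 16.6 on stiff at day 4. The groups overlapped at this site, and its mean percentile was 95.6, while the other members of the chain had 80.8, 62.8 and 91.7.

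The summits of a site lay closer together across libraries at isolated sites than at promoter sites, which were also wider. All 8 summits lay within 50 bp of each other at only 4.23% of isolated and 2.56% of promoter sites. The distance between the outermost of the 8 summits had a median of 147 bp at isolated sites and 206 bp at promoter sites, and 92.5% of isolated sites had exactly 1 peak per library, against 83.2% of promoter sites. The median SD of the summit position over libraries was 89.2 bp in the weakest quintile of the members and 37.1 bp in the strongest quintile.

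By annotation, 9228 isolated sites (61.8%) had their centre in an intron, 5144 (34.4%) in intergenic sequence and 563 (3.77%) in an exon. Median percentiles were 49.8, 50.7 and 47.4, in that order. The median distance to the nearest transcription start was 15783 bp and the largest was 443776 bp. The 2740 sites at 1 to 5 kb from a start were the weakest by distance, with a median percentile of 43.3, and at most 46.5 in each of the 8 libraries. The 5890 sites at 5 to 20 kb had 51.6, the 3949 at 20 to 50 kb had 51.8 and the 1693 at 50 to 100 kb had 51.5, so that these classes lay within a percentile point of each other. The 91 members at 1.0 to 1.1 kb from a start had a median percentile of 39.6 and a GC content of 52.2%, and the 104 sites at 0.9 to 1.0 kb, just outside the rule, had 32.1 and 54.7%.

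The base composition was that of sequence without CpG islands. Within 100 bp of the summit, the median GC content was 46.8% at isolated sites, 49.3% at clustered distal sites and 64.7% at promoter sites. The ratio of observed to expected CpG was 0.198, 0.179 and 0.807, in the same order, so CpG was scarce in both distal classes. Copies elsewhere in the genome were rare: 232 isolated sites (1.55%) had a median of 2 or more exact genome copies of their 31-base words, against 78 promoter sites, and 0 matched the mitochondrial sequence.

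The AP-1 letters were the most frequent of 12 motifs looked for up to 100 bp from the summit, reading both strands. TGACTCA or its reverse complement was found at 6103 isolated sites, or 40.9%, against 39.2% of clustered sites, 7.54% of promoter sites and 30.2% of all 75501 regions found in at least 2 libraries. In windows of the same length 1 kb to either side of the isolated summits the share was 3.48%. The TEAD letters GGAATG were found at 23.5% of isolated, 22.4% of clustered and 9.41% of promoter sites, in 19.1% of all regions and in 11.0% of the flanking windows. The RUNX letters TGTGGTT, read by the RUNX factors, were found at 8.29% of isolated and 2.49% of promoter sites, in 6.59% of all regions and in 3.61% of flanking windows. TEAD and RUNX letters were thus denser at the summits than beside them, though by less than AP-1.

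Promoter letters were scarce. The GC box GGGCGG, read by SP and KLF factors, was found at 7.25% of isolated and 55.2% of promoter sites, with 16.0% of all regions and 3.55% of flanking windows. The ETS letters CCGGAAG were found at 1.65% of isolated and 14.3% of promoter sites, with 3.56% of all regions and 0.596% of flanking windows. The CTCF core was found at 236 isolated sites, or 1.58%, which was below the 3.32% of promoter sites and the 4.24% of all regions, and above the 0.368% of flanking windows. Among the 12 motifs, 3305 isolated sites (22.1%) held none. A match is a run of letters and not a measured binding event.

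Differences in AP-1 and TEAD share between isolated and clustered distal sites did not pass the threshold, and they changed direction and call with the definition of the classes. At each library's own summit the AP-1 share of isolated sites was 33.2% and 40.9% on soft at day 2, 40.6% and 40.7% on soft at day 4, 40.6% and 41.0% on stiff at day 2, and 39.5% and 41.2% on stiff at day 4. Isolated minus clustered was 2.01 ± 2.405 percentage points for AP-1 (SD, n = 8, higher in 7 of 8 libraries; exact sign-flip permutation p = 0.0703, adjusted p = 0.105 over 12 motifs) and 0.612 ± 2.32 points for TEAD (higher in 4 of 8; adjusted p = 0.511 by the same exact test). With lists cut to equal length, which left 16 clustered sites, the difference was -3.93 for AP-1 (adjusted p = 0.135) and 10.2 for TEAD (adjusted p = 0.0312), by the same exact test. With a chain gap of 5 kb, which left 5 clustered sites, it was -15.3 for AP-1 (exact test, adjusted p = 0.0312) and 10.4 for TEAD (adjusted p = 0.0117). With a chain gap of 25 kb AP-1 gave 2.61 and passed the threshold (exact test, adjusted p = 0.0134). TEAD gave -1.20 with a distance of 2.5 kb from a start and -1.19 without D2 soft replicate 1, and neither passed it. Each setting compared the same sites in every library. These p-values therefore cover the spread between libraries and not between sites, and cannot decide whether the classes differ in motif share.

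The AP-1 letters gathered beside the summit and not on it. In bins of 10 bp, isolated sites had 46.9 matches per 1000 sites at 25 bp before the summit and 46.5 at 25 bp after it, but 16.3 and 15.9 in the bins on either side of the summit itself, and 4.29 and 3.41 at the outer bins 245 bp away. TEAD matches rose from 6.83 per 1000 sites at the outer bin to 16.6 at 15 bp before the summit. At promoter sites the AP-1 profile had its highest bin at 8.06.

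**Figure D2:**
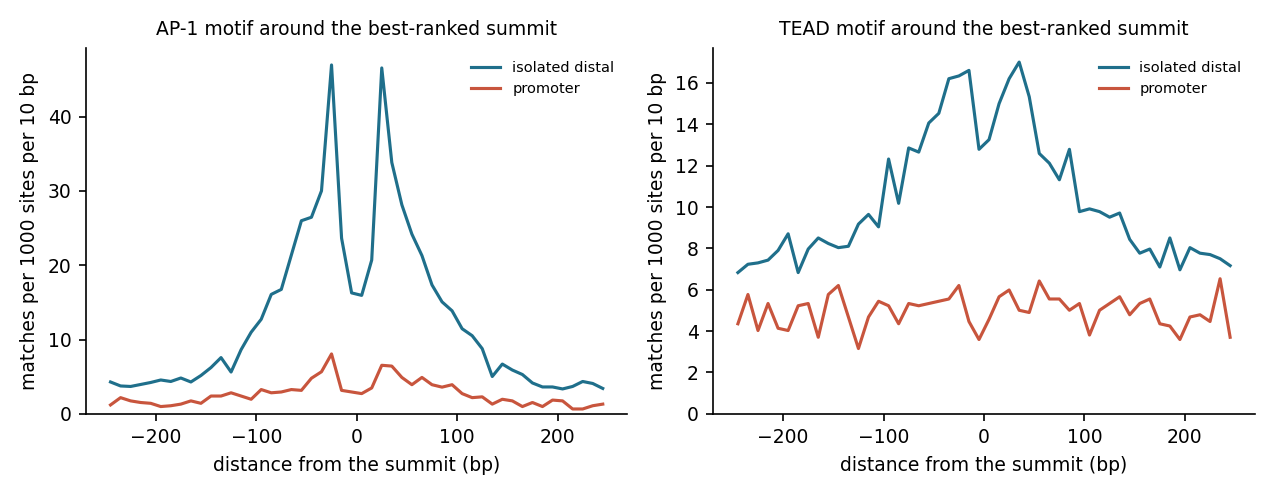
Matches per 1000 sites in bins of 10 bp against distance in bp from the summit of the best-ranked peak, for AP-1 (left) and TEAD (right) at isolated distal and promoter sites. AP-1 at isolated sites forms a pair of shoulders of 46.9 and 46.5 at 25 bp with a dip between them, and TEAD a broader and lower rise.

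Members with AP-1 letters were the stronger ones, as a description of the same sites in each library. Their median percentile was 54.1, against 46.6 without, and the gap was above 0 in 8 of 8 libraries. The gap was 2.47 and 9.83 on soft at day 2, 9.46 and 10.4 on soft at day 4, 6.38 and 9.53 on stiff at day 2, and 4.89 and 9.18 on stiff at day 4. D2 soft replicate 1, which also had the fewest fragments, had the smallest gap. The mean gap of 7.76 stayed between 4.94 and 8.59 over 18 other settings, ranks of −log10 p among them. With a motif window of 50 bp the mean gap was 5.25, and it was above 0 in 7 of 8 libraries. Matches were counted only near the summit, and summits varied more between libraries at weaker members. The part of summit placement in the relation of AP-1 letters to strength was not tested. TEAD-bearing members had 52.3 against 49.3, RUNX-bearing members 53.6 against 49.7, each higher in 8 of 8 libraries, and CTCF-bearing members had 40.7 against 50.1 and were lower in 8 of 8. Strength also went with the number of AP-1 matches. The median percentile was 46.6 for 8832 members with 0 matches, 53.6 for 5303 with 1, 58.6 for 752 with 2 and 64.4 for 48 with 3 or more, and this order held in each of the 8 libraries. In D2 soft replicate 1 the steps were 47.9, 49.9, 52.6 and 56.3, and in D4 soft replicate 2 they were 46.4, 56.1, 63.6 and 72.2.

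**Figure D3:**
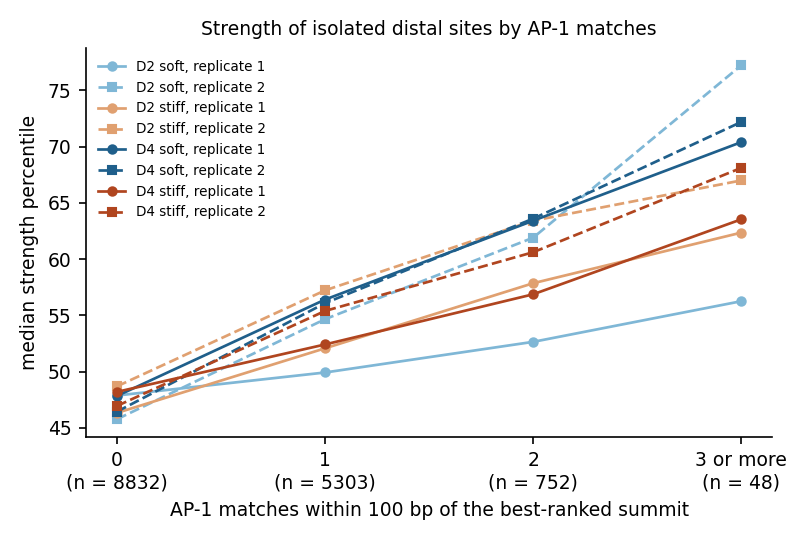
Median strength percentile of isolated distal sites in each of the 8 libraries (lines, coloured by group) against the number of AP-1 matches within 100 bp of the best-ranked summit, with the number of sites under each step. Every line rises from 0 to 3 or more matches, and D2 soft replicate 1 rises least, from 47.9 to 56.3.

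AP-1 and TEAD letters together gave the strongest of the joint classes. The 1221 members with both had a median percentile of 57.4, the 4882 with AP-1 alone 53.3, the 2293 with TEAD alone 48.3 and the 6539 with neither 45.8. In each library the members with both were above the members with AP-1 alone, at 54.5 against 49.5 in D2 soft replicate 1 and 61.9 against 54.8 in D4 stiff replicate 2. The letters did not occur together more often than their shares give: both were present at 8.18% of members, against 9.61% from the product of the shares, and TEAD letters were found at 20.01% of members with AP-1 and 26.0% of members without.

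Ordering the members by mean percentile and cutting them into 5 quintiles of 2987 showed the same relation from the side of strength. From the weakest to the strongest quintile the AP-1 share was 32.8%, 37.1%, 42.9%, 44.1% and 47.6%, and the TEAD share went from 21.0% to 26.7%. The RUNX share went from 5.96% to 10.2%, while the CTCF share went from 2.08% to 1.105%. The median fold enrichment was 6.52 in the weakest and 13.3 in the strongest quintile. Length did not follow strength, with medians of 890 and 855 bp, and GC content was 46.8% and 48.3%.

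Distal regions that failed the rule on presence had fewer AP-1 letters. The AP-1 share was 29.4% in the 9477 distal regions found in 2 libraries, 33.7% in those found in 4, 37.3% in those found in 6, 38.9% in the 10108 found in 7 and 40.8% in the 15060 found in all 8. The CTCF share went the other way, at 6.64%, 5.85%, 3.93%, 3.10% and 1.59%. The median length went from 409 to 884 bp, and depth differed between libraries, so presence, length and strength cannot be told apart here.

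The 6 members of highest mean percentile ranked near the top in every library, with no percentile below 97.6. The strongest, chr1:91852773-91853149, lay in an intron of HFM1, a meiotic DNA helicase, and had a fold enrichment of 20.4 and 21.9 on soft at day 2, 24.8 and 23.5 on soft at day 4, 21.3 and 21.7 on stiff at day 2, and 22.7 and 24.1 on stiff at day 4. It was also the member with the smallest spread of percentile over libraries, an SD of 0.00961, followed by chr17:36388743-36389432 in the pseudogene NPEPPSP1 with 0.103. Several of the 6 had copies elsewhere: the 31-base words of the HFM1 site and of chrX:153513166-153513672 in TEX28 had a median of 3 genome copies, and those of chr17:36388743-36389432 and of chr18:14826547-14827462, in an intron of ANKRD30B, a median of 1.5. The other 2 had a median of 1 copy: chr18:21655928-21656624 in an intron of TTC39C, and chr1:121484358-121485434, which lay 539 bp from a gap in the assembly. Single-copy here means a median of 1 exact copy of the words in hg19. Diverged copies and copies missing from the assembly were not counted, and no filter for artefact-prone regions was applied here. The part of copies in their strength was not tested. Of the 6, only the TEX28 site held AP-1 letters and only the NPEPPSP1 site held TEAD letters, and none held the CTCF core.

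The strongest single-copy members with AP-1 letters were chr2:37116784-37117432 in an intron of STRN, the scaffold protein striatin, and chr12:19291261-19291898 in an intron of PLEKHA5. The STRN site had a fold enrichment of 15.6 and 19.8 on soft at day 2, 18.3 and 15.3 on soft at day 4, 16.9 and 20.6 on stiff at day 2, and 19.7 and 16.6 on stiff at day 4. The groups overlapped, and the mean percentile was 99.4 with an SD of 0.816. The strongest members with the CTCF core had mean percentiles of 96.7, at chr5:43105430-43106443 in an intron of the zinc finger gene ZNF131, 94.2, at chr1:33592618-33593499, and 93.4, at chr16:30825401-30826160. The ZNF131 site had a fold enrichment of 10.4 and 18.3 on soft at day 2, 17.2 and 13.0 on soft at day 4, 15.8 and 18.4 on stiff at day 2, and 14.0 and 17.1 on stiff at day 4.

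Other members varied widely between libraries. The largest SDs of percentile were 35.3, at chr18:3675385-3675887 in an intron of the synaptic scaffold gene DLGAP1, and 34.9, at chr14:36707738-36708389. The DLGAP1 site held AP-1 and TEAD letters and had a fold enrichment of 3.68 and 10.9 on soft at day 2, 6.83 and 10.3 on soft at day 4, 12.3 and 15.2 on stiff at day 2, and 12.3 and 16.2 on stiff at day 4, so each stiff library was above each soft one. Over all members the Spearman correlation of strength between replicates was 0.573 to 0.770 over 4 pairs, and between libraries of different groups it was 0.521 to 0.774 over 24 pairs. The means were 0.708 and 0.684. These are correlations across sites, and the ranges overlapped.

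The main question of the design was whether open chromatin differed between the matrices. Ranks within a library hold the median over sites near 50, so a shift shared by most sites cannot appear in them, and the values here compare the members' place among the sites open in every library. By that measure the difference over all members was smaller than the spread between libraries. The median percentile was 50.6 ± 1.39 (SD, n = 4) on stiff and 50.3 ± 1.32 (SD, n = 4) on soft matrix, a stiff minus soft difference of 0.270 with an exact two-sided permutation p of 0.743 over 70 arrangements, of which the smallest possible is 0.0286. The difference was 1.33 on day 2 and -0.794 on day 4, where 2 against 2 libraries cannot give a p below 0.333, and it was -1.31 when −log10 p was ranked.

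The AP-1 gap, the percentile of members with the letters minus that of members without, was 7.50 ± 2.237 in stiff and 8.03 ± 3.72 in soft libraries (SD, n = 4 each; stiff minus soft -0.531, exact permutation p = 0.771, adjusted p = 0.857 over 10 motifs). The difference was 1.81 on day 2 and -2.87 on day 4. The TEAD gap was 1.53 and 0.763 on soft at day 2, 2.19 and 2.90 on soft at day 4, 5.29 and 4.45 on stiff at day 2, and 3.44 and 4.89 on stiff at day 4. The groups did not overlap, and every stiff library had a larger TEAD gap than every soft library. The mean was 4.52 ± 0.792 in stiff and 1.85 ± 0.914 in soft libraries (SD, n = 4 each), a difference of 2.67 that was 3.72 on day 2 and 1.62 on day 4. The exact permutation p was 0.0286, the smallest that 4 against 4 libraries allow, and the p adjusted over 10 motifs was 0.286, so that the difference did not pass the correction. With lists of equal length the stiff minus soft difference in the TEAD gap was 1.63 (exact permutation, adjusted p = 0.643). The stiff libraries were the deeper ones on each day, and the part of depth in the gap was not tested.

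**Figure D4:**
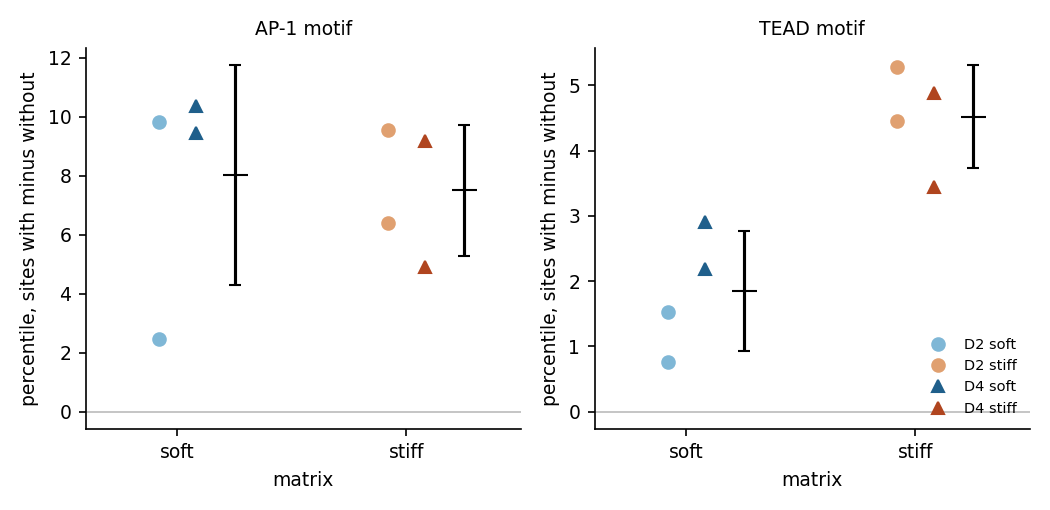
Median percentile of isolated distal sites with the motif minus that of sites without it, in percentile points, for each soft and stiff library (circles, day 2; triangles, day 4), with the mean and SD of 4 libraries in black. The AP-1 gaps of the matrices overlap, and the TEAD gaps do not, at 0.763 to 2.90 on soft and 3.44 to 5.29 on stiff.

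Site by site, limma on normal scores of the ranks, with Benjamini-Hochberg adjustment over all 24246 sites open in every library, called 1 isolated site higher on stiff on day 2 (background over all sites 0.00412%) and 0 lower (background 0%). On day 4 it called 0 members in either direction (background 0.00825% higher and 0% lower), and over both days 0 higher (0.00412%) and 1 lower (0.00412%). Day 4 against day 2 gave 0 calls in each direction (0% and 0%), and the interaction of matrix and day gave 0. At an unadjusted p under 0.05, limma gave 762 members higher and 520 lower on day 2, 517 and 379 on day 4, 758 and 539 over both days, and 696 and 414 for day 4 against day 2. As shares of members these were 5.10% and 3.48% on day 2, beside 4.28% and 3.38% of all sites, and 3.46% and 2.54% on day 4, beside 3.21% and 2.13%. Over both days they were 5.08% and 3.61%, beside 4.40% and 3.32% of all sites, and for day 4 against day 2 they were 4.66% and 2.77%, beside 4.05% and 2.86%.

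The day 2 call was chr6:15793213-15794114, an intergenic site without AP-1, TEAD or CTCF letters whose sequence is shown above. Its fold enrichment was 3.12 and 5.41 on soft at day 2, 10.5 and 8.21 on soft at day 4, 10.8 and 14.6 on stiff at day 2, and 12.2 and 11.2 on stiff at day 4. Both D2 soft libraries were below the other 6, which ranged from 8.21 to 14.6. The limma difference was 3.20 ± 0.519 (SE) normal-score units on day 2, with an adjusted p of 0.0279, and 0.36 on day 4, with an adjusted p of 0.976. The call over both days was chr2:103752017-103752654, in an intron of the noncoding gene ENSG00000229209. Its fold enrichment was 7.85 and 7.60 on soft at day 2, 8.74 and 7.29 on soft at day 4, 3.71 and 5.64 on stiff at day 2, and 4.60 and 4.04 on stiff at day 4. Each stiff library was below each soft one, and the limma difference was -2.14 ± 0.369 (SE), with an adjusted p of 0.0384. With single libraries left out, the day 2 call was lost in 7 of 8 cases and the call over both days in 6 of 8, while the differences stayed at 2.49 to 3.76 on day 2 and at -2.44 to -1.82 over both days. The limma adjusted p ranged from 0.00322 to 0.513 and from 0.00654 to 0.478.

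The next members by p were not called. Higher on stiff were chr17:55220300-55220678, nearest to the start of AKAP1, a mitochondrial anchor protein of kinase A, and chr2:18543864-18544522, both with TEAD letters. The AKAP1 site had a fold enrichment of 5.76 and 6.92 on soft at day 2, 6.20 and 4.88 on soft at day 4, 11.8 and 12.7 on stiff at day 2, and 11.2 and 11.7 on stiff at day 4. No soft value came near a stiff one, and the limma adjusted p was 0.249. Lower on stiff, and also not called with an adjusted p of 0.253 in limma, was chr6:45557952-45558691 in an intron of RUNX2, a transcription factor of bone and cartilage. The RUNX2 site had a fold enrichment of 11.4 and 14.4 on soft at day 2, 13.7 and 12.1 on soft at day 4, 8.41 and 12.1 on stiff at day 2, and 10.2 and 10.9 on stiff at day 4. These values overlapped, but its percentiles, which limma used as normal scores, did not. They were 88.5 to 96.2 on soft and 33.4 to 70.5 on stiff matrix.

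Counting sites whose percentiles did not overlap between 4 and 4 libraries gave 306 members (2.05%) with stiff above soft, beside 1.88% of all sites open in every library, and 304 (2.04%) with soft above stiff, beside 2.12%. For the days it gave 261 members (1.75%) with day 4 above day 2, beside 1.68%, and 260 (1.74%) with day 2 above day 4, beside 1.98%. The members' shares were near the background in every direction. Stiff above soft held for 2.68% of TEAD-bearing members and 1.86% of the others, and for 1.77% of AP-1-bearing members and 2.242% of the others. Soft above stiff held for 1.94% of TEAD-bearing members and 2.07% of the others. For AP-1 it held for 2.16% of bearing members and 1.95% of the others. These splits by motif were not tested.

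Of 56 genes of fibrosis, cytoskeleton, AP-1 and Hippo signalling, 28 had at least 1 isolated site whose nearest start was theirs, with 45 sites in all, and 17 of these (37.8%) held AP-1 letters. Their median percentile was 36.6, beside 50.05 for all members. SMAD3, a transcription factor of TGF-beta signalling, had the most, with 6 sites. COL5A1, a type V collagen chain, the receptor gene TGFBR1, the inhibitory SMAD gene SMAD7 and the ligand gene PDGFC had 3 each. COL8A1, a type VIII collagen chain, had 2, both with AP-1 letters. ACTA2, COL1A1, COL1A2, COL3A1, CCN2, JUN, JUNB and FOS had 0.

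The strongest of these, chr9:137494265-137495067, lay 38983 bp from the start of COL5A1 and held TEAD letters. Its fold enrichment was 9.31 and 12.6 on soft at day 2, 13.1 and 14.4 on soft at day 4, 13.8 and 13.5 on stiff at day 2, and 12.6 and 13.7 on stiff at day 4, and its mean percentile was 86.4. The groups overlapped, and the limma adjusted p for stiff against soft over both days was 0.886. The next were chr9:101837511-101838444 near TGFBR1 (mean percentile 86.4), chr15:67470304-67471517 in a SMAD3 intron (72.6), chr3:99377101-99378373 in a COL8A1 intron (69.5), chr1:212769054-212770002 in an intron of ATF3, an AP-1 partner (67.3), and chr18:46423032-46423829 near SMAD7 (66.7). The COL8A1 site had a fold enrichment of 6.19 and 11.4 on soft at day 2, 10.7 and 12.3 on soft at day 4, 14.4 and 13.8 on stiff at day 2, and 9.31 and 13.0 on stiff at day 4. On day 2 both stiff libraries were above both soft ones, with a limma difference of 1.11 ± 0.518 (SE) and an adjusted p of 0.628, and on day 4 the groups overlapped.

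The members were unevenly spread over chromosomes. Chromosome 17 held 7.83 per Mb of sequence, chromosome 20 held 7.43, chromosome 15 held 6.94 and chromosome 5 held 6.87, while chromosome 4 held 3.92 and chromosome X held 2.46. Strength followed this density in part, with median percentiles of 56.1 on chromosome 20, 54.8 on chromosome 5 and 54.7 on chromosome 17, and 42.2 on chromosome 16. Promoter sites had medians of 51.2, 56.9, 51.1 and 46.8 on the same chromosomes, in that order. Counted per promoter site, the members ordered the chromosomes in another way. There were 2.36 members per promoter site on chromosome 5, 2.01 on 4, 1.82 on 20, 1.76 on 15, 1.37 on X and 1.14 on 17. Of the 100 strongest members, 26 lay on chromosome 5, which held 8.17% of all members. The local background under the members, which fold enrichment divides by, was 1.28 times the median of all members on chromosome 20, 1.27 on 17 and 1.20 on 5, and 0.784 on chromosome 4 and 0.741 on X. The part of background, and of the number of chromosome copies in LX-2 cells, in these differences was not tested.

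**Figure D5:**
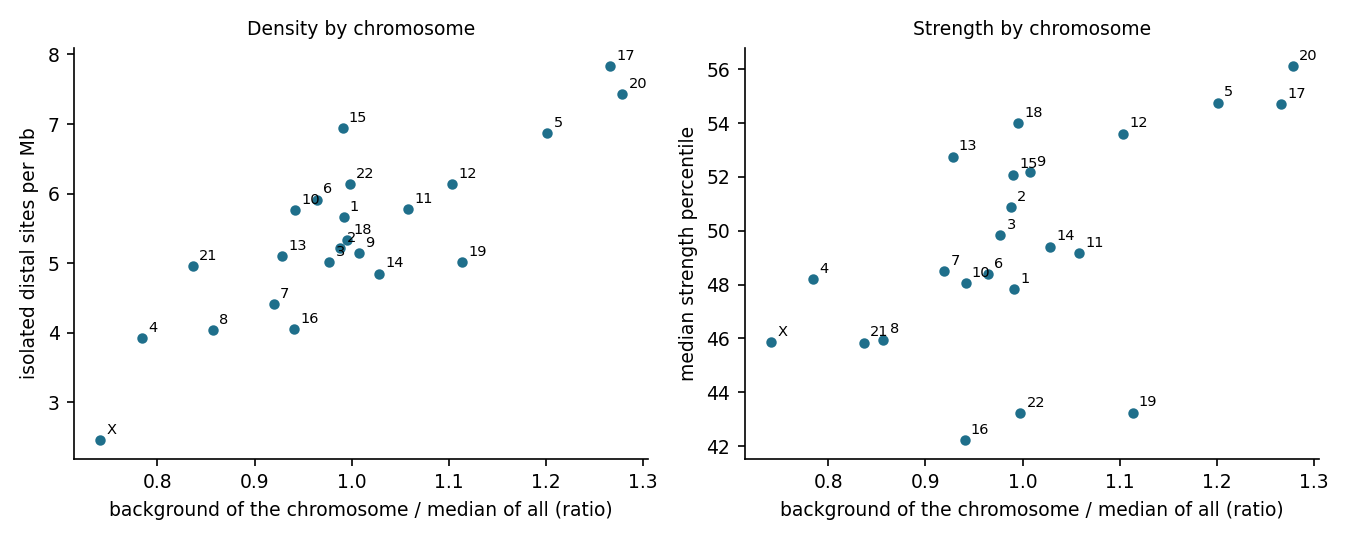
Isolated distal sites per Mb of sequence (left) and their median strength percentile (right) against the local background under the sites, as a ratio to the median of all members averaged over 8 libraries; each point is a chromosome, and Y is left out. Chromosomes 5, 17 and 20 lie at the top right with ratios of 1.20 to 1.28. X, with 0.741, lies at the bottom left in the left panel only. In the right panel the lowest point is chromosome 16, at 42.2 with a ratio of 0.940, and X is at 45.9.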

How the data were processed

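The data were 8 lists of open regions from LX-2 cells on soft or stiff matrix at day 2 or day 4, with 2 libraries in each of the 4 labelled groups. Trim Galore, Bowtie2 (to hg19) and MACS2, run by the authors per library at a q-value up to 0.05, made the lists. The submitters' processing notes give Bowtie2 as 2.4.1 and also name bedtools 2.24.0 and Picard, which the study's methods describe for RNA-seq signal tracks and for marking duplicates in CUT&Tag data. Their part in the open-region lists, the treatment of transposase offsets and the caller's other options were not given in the sources used here. Per the deposited lists, fold enrichment, a ratio, sets the fragments at a summit against the local background, each plus 1. The −log10 p and −log10 q values deposited by the authors refer to the same background. The score the authors deposited was not used. The offset of each summit inside its peak was the other deposited value used. These values are comparable only within a list, so sites were ranked within libraries. Read counts were not used here.

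Peaks overlapping by at least 1 bp were merged. A site's value in a library was its highest fold enrichment there, turned into a percentile over the 24246 sites open in every library. Transcription starts were those of 110162 basic transcripts of GENCODE release v44lift37 on GRCh37. Pileup and background were recovered from fold enrichment and p for 100% of peaks, and depth was the lowest background over the shortest peak, which serves only to compare libraries and covers no error of its own. Motifs were searched on both strands of the reference within 100 bp of the summit: TGACTCA for AP-1, GGAATG for TEAD, GGGCGG for the GC box, CCGGAAG for ETS, TGTGGTT for RUNX, TTGCNNAA for C/EBP, TGACGTCA for CRE, TGTTTAC for forkhead, CCAAT for NF-Y, TTGGC and GCCAA with 5 bases between them for NFI, and the CTCF core and the SRF CArG box by name.

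Differences between classes were tested by exact sign-flip permutation over 8 libraries, and stiff against soft by exact permutation of 4 against 4, with Benjamini-Hochberg adjustment over motifs. Normal scores of the ranks were fitted with limma 3.58.1 in R 4.3.3 (lmFit and eBayes, 4 group means, adjusted p under 0.05), and the fit was tested on simulated data. Replicate numbers were those of the library titles, and peak names inside the lists carried other numbers. Libraries with equal title numbers showed no pairing: the correlations of their deviations were -0.0414 to 0.0837 over 6 pairs. Pairing by the other numbers was not tested. Sites named were the 6 strongest, the 3 strongest with CTCF and with AP-1 letters, the strongest chain of 4, every limma call, the 3 of lowest p for stiff against soft in each direction, the 2 of smallest and the 2 of largest spread, and the 6 strongest nearest to a gene of the list; none on chromosome 8. The members, the gene and motif lists and the tests were chosen with earlier results of these data known. One site that the naming rule picked is not reported here.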

Additional observations from a re-analysis of the deposited data

Results flagged for a closer look

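In 24 comparisons of 1 library with the other 3 on the same matrix, over 12 measures of the isolated sites, 4 values stood apart by Dixon's 95% criterion for groups of 4, which chance passes in about 1 of 20. All 4 belonged to D2 soft replicate 1, the shallowest library. Its median peak width was 491 bp, against 582 bp in the nearest other soft library. Its share of members with AP-1 letters at its own summit was 33.2%, against 40.6%. Its share with GC box letters was 6.03%, against 7.14%. Its percentile gap between members with and without AP-1 letters was 2.47, against 9.46. The part of depth in these values was not tested.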

How the results depend on the processing

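Lists of equal length, with the peaks of lowest p kept, left 8861 isolated and 16 clustered sites. Isolated minus promoter was then 7.98 percentile points and past the threshold, the motif shares against clustered sites were -3.93 points for AP-1 and 10.2 for TEAD with 8 motifs past the threshold in place of 5, and the GC content difference was 0.995 points in place of -2.49. Ranks of −log10 p turned isolated minus clustered to -10.0, isolated minus promoter to -9.29 and stiff minus soft to -1.31. The GC difference was -2.24 with merging at 100 bp, -5.47 and -1.74 with chain gaps of 5 and 25 kb, and -1.99 with starts of all transcripts, a setting chosen after seeing the data. With the 5 kb gap AP-1 was -15.3, TEAD 10.4 and 9 motifs passed; with 25 kb AP-1 was 2.61 and past the threshold and 8 motifs passed. TEAD was -1.20 with starts over 2.5 kb away. A motif window of 50 bp left 0 motifs past the threshold and turned the AP-1 gap, stiff minus soft, to 0.163. The causes were not tested.

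The limma calls were few: the day 2 call was lost (0 higher) with q up to 0.01, equal lists, −log10 p and the day 2 libraries alone, equal lists left 0 lower over both days, and −log10 p gave 1 higher over both days. With the replicate block limma gave 1 call higher on day 2 and 1 lower over both days, at the same sites, and changed no other call. With each library left out in turn, the calls ranged from 0 to 174 higher and 0 to 34 lower on day 2, 0 to 2 higher on day 4, 0 to 56 higher and 0 to 8 lower over both days, and 0 to 35 higher and 0 to 1 lower for day 4 against day 2; the highest came without D2 soft replicate 2, which leaves the shallowest library alone in its group and assumed to vary like the others. The calls in these cases were counted for members only, with no background share over all sites. They cannot show whether members were called more often than other sites. Isolated sites numbered 14989 to 23115, and the highest was without D2 soft replicate 1. Over the same 8 cases isolated minus clustered was 8.10 to 15.7, isolated minus promoter 0.145 to 1.33, and width -81.7 to -51.1 bp. GC was -2.99 to -0.995, and motif shares were 0.2998 to 2.83 for AP-1 and -1.19 to 2.45 for TEAD with 4 to 6 motifs past the threshold. Stiff minus soft was -0.345 to 0.765 for the median percentile. The stiff minus soft difference was -2.73 to 0.311 in the AP-1 gap and 2.47 to 3.18 in the TEAD gap. The stiff minus soft difference in the TEAD gap stayed above 0 in every setting run, and its adjusted p stayed above the threshold. D2 soft replicate 1 was the shallowest library, and the part of its depth in the membership and the ranks was not tested.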

Other observations

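Other motifs were looked for at the same summits. The C/EBP letters were found at 9.61% of isolated sites, 4.79% of promoter sites and 10.1% of flanking windows, the forkhead letters at 3.25%, 1.45% and 2.77%, and the NF-Y letters at 23.2%, 31.5% and 25.2%. The SRF CArG box was found at 1.12% of isolated sites and 1.25% of flanking windows. The CRE letters, which CREB and ATF proteins read, were found at 0.315% of isolated sites, 2.10% of promoter sites and 0.0971% of flanking windows. Of the 12 motifs, 5 differed in share between isolated and clustered distal sites at an adjusted p under 0.05 by the exact sign-flip permutation test: the GC box, C/EBP, NFI, forkhead and NF-Y. The NFI difference rests on 2 isolated sites, and all 5 rest on the same 125 clustered sites. The p-values of this test cover the spread between libraries and not between sites. With a motif window of 50 bp, 0 of the 12 passed the threshold by the same test.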
